A study of Mus musculus with 32 samples.

Results

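Angptl4, Pck1 and Pdk4 were followed in the interscapular brown fat (iBAT) of mice, a tissue that burns fatty acids and glucose to make heat. They were picked by symbol from the 50686 genes of the count table, and all 3 passed the filter on low counts, which kept 15505 genes. Each library was from 1 non-fasted male C57BL/6J mouse of 10 weeks, fed chow ad libitum, kept at 22 °C in a light:dark cycle and killed with CO2. There were 8 time points with 4 mice each, 32 in all. Time is given as Zeitgeber Time (ZT), in hours from the onset of light. Mice rest in the light phase, from ZT0, and are active in the dark phase, from ZT12. No mouse was fasted, so the series has no fasted group. The 3 genes were chosen with their values in these mice known. Their own levels, their pattern over the day and their relation to each other are therefore described without a test.

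Angptl4 encodes a secreted protein that inhibits lipoprotein lipase (LPL), the enzyme that frees fatty acids from circulating triglycerides. Pck1 encodes the cytosolic phosphoenolpyruvate carboxykinase, which in fat serves glyceroneogenesis, the making of the glycerol backbone of triglycerides from pyruvate. Pdk4 encodes a kinase that shuts off pyruvate dehydrogenase and so spares glucose. All 3 are known to rise on fasting and to fall with insulin, and they are known targets of PPAR nuclear receptors, of the glucocorticoid receptor and, for Pck1 and Pdk4, of FOXO factors.

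Angptl4 (ENSMUSG00000002289) lies on the minus strand of chromosome 17 from 33773750 to 33781830 of GRCm38. Pck1 (ENSMUSG00000027513) is on the plus strand of chromosome 2 from 173153048 to 173159273. Pdk4 (ENSMUSG00000019577) is on the minus strand of chromosome 6 from 5483351 to 5496309. These are 3 unlinked loci, and counts were summed over the exons of each. Promoter windows of 300 bases, from 250 before to 50 after the start, were taken from RefSeq (GRCm38.p6), in which 2 of the 3 members were matched. They are shown because the members moved together between mice and are known to answer to the same hormones. Capitals mark TTACGTCA, which differs by 1 base from TGACGTCA, the letters of the cAMP response element.
Pck1, chr2:173152823-173153122, plus strand: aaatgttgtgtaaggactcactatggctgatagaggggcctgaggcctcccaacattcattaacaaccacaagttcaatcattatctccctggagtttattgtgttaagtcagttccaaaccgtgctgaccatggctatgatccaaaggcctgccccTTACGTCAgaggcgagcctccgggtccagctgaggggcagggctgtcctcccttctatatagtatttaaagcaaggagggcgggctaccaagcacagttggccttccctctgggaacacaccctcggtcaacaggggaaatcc
Pdk4, chr6:5496229-5496528, minus strand: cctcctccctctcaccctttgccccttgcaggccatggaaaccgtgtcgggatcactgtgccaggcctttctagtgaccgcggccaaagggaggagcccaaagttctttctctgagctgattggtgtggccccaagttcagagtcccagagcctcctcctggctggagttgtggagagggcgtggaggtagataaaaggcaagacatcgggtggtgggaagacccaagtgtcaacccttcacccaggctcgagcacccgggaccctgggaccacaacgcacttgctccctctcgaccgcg
In Pck1 the capitals begin at position -93 from the start. This letter string was added to the search after the sequence was seen. On either strand it is in 164 of 32851 RefSeq promoter windows of the same length (0.499%). Neither window holds TGACGTCA itself (1.79% of all windows), the nuclear receptor half-site AGGTCA (16.3%), DR1, a pair of such half-sites with 1 base between them and up to 2 mismatches (3.86%), the forkhead letters TGTTTAC (3.65%), the glucocorticoid receptor half-site AGAACA (19%), the E-box CACGTG (7.15%) or TATAAA (13.6%). The GC content was 52% for Pck1 and 60.7% for Pdk4, beside a median of 52.7% over all windows, and they held 6 and 12 CpG beside a median of 7.

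Total counts per library ran from 16300770 to 18254659. The members were deeply covered, with 940 to 9559 counts of Angptl4, 14144 to 82707 of Pck1 and 5688 to 36014 of Pdk4 per library, so counting error is small beside the spread between mice. The labels put ZT0, ZT3 and ZT6 on sequencing lane 2, ZT9, ZT12 and ZT15 on lane 3, and ZT18 and ZT21 on lane 4. Differences between those sets of time points and differences between lanes cannot be told apart, whereas comparisons among mice of the same time point lie within a lane. The brown adipocyte markers summed to 9248 to 15080 CPM (counts scaled to the size of the library) over all libraries. Transcripts of skeletal muscle, which borders the pad, summed to between 2.79 and 7819 CPM, and replicate 1 of ZT15 had the highest muscle, the lowest brown adipocyte and the highest white adipocyte sum. That library stood apart for several genes below, and results that rest on it are given with and without it. White adipocyte markers summed to 53.1 to 430.3 CPM with Tcf21 and Wt1 at 0. Hepatocyte and kidney tubule markers, which stand for other tissues that use Pck1, reached at most 1.61 and 0.0596 CPM, with Ttr, Slc34a1, Umod and Kap at 0. In bulk tissue, fewer cells of a type and less RNA per cell cannot be told apart.

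Per kilobase of exon, Pck1 was the most abundant of the 3, with 711 CPM per kb, followed by Pdk4 with 308 and Angptl4 with 76.4 (means of 32 mice). The following levels are CPM after TMM scaling, listed for replicates 1 to 4.

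Angptl4 was 158, 269.8, 112 and 490.5 CPM at ZT0. At ZT3 it was 498, 478, 554 and 521 CPM, and at ZT6 it was 261, 388, 362 and 492. The mice of ZT3 were alike and high, whereas those of ZT0 spanned 4.37-fold. At ZT9 Angptl4 was 162, 321, 144 and 139 CPM, at ZT12 it was 91.2, 236, 98.0 and 179, and at ZT15 it was 209, 87.6, 54.8 and 63.8. These 12 mice all lay below the 4 of ZT3. At ZT18 the values were 118, 165, 287 and 422 CPM and at ZT21 they were 429.6, 313, 354 and 201, so that the level was again high in most mice before lights on. The highest mean was 513 ± 32.9 CPM (SD, n = 4) at ZT3 and the lowest 104 ± 71.7 CPM (SD, n = 4) at ZT15, a 4.94-fold difference. In means of log2 CPM the difference was 2.515, and 2.924 without replicate 1 of ZT15. In between, in falling order, came ZT6 (376 ± 94.9), ZT21 (325 ± 95.3), ZT0 (258 ± 169), ZT18 (248 ± 136), ZT9 (191 ± 86.7) and ZT12 (151 ± 69.4 CPM). Of the 7 pairs of neighbours in this order, 6 differed by less than their pooled SD and all 7 overlapped.

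Pdk4 followed the same course at a higher level. It was 461, 824, 519 and 1191 CPM at ZT0, 1992, 1509, 2033 and 2117 at ZT3 and 1482, 1655, 1385 and 1602 at ZT6. No mouse of ZT3 or ZT6 was below 1385 CPM. At ZT9 Pdk4 was 916, 1743, 508 and 519 CPM, at ZT12 it was 648, 1046, 695 and 629.7, and at ZT15 it was 623, 473, 400.5 and 334. Replicate 2 stood above the other mice at both ZT9 and ZT12. At ZT18 the values were 419, 710.1, 1191 and 1377 CPM, and at ZT21 1788, 1314, 1199 and 1298. The mean was highest at ZT3 (1913 ± 274 CPM, SD, n = 4) and lowest at ZT15 (458 ± 124 CPM, SD, n = 4), 4.18-fold apart, and no mouse of one overlapped with the other. The order between was ZT6 (1531 ± 121), ZT21 (1400 ± 264), ZT18 (924 ± 439), ZT9 (921 ± 579.5), ZT12 (755 ± 196) and ZT0 (749 ± 335 CPM), with 4 of 7 neighbouring pairs within their pooled SD and all 7 overlapping.

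Pck1 had a flatter profile. It was 1238, 1547, 843 and 2806 CPM at ZT0, 2547, 3464, 3713 and 3814 at ZT3 and 2416, 2556, 2159.7 and 2917 at ZT6. Replicate 4 of ZT0 was far above its 3 companions, as it was for Angptl4. At ZT9 Pck1 was 2548, 4789, 2330.3 and 2709 CPM, at ZT12 it was 2092, 3220.0, 2306 and 2616, and at ZT15 it was 2734, 1612, 1304 and 1669. Unlike Angptl4 and Pdk4, Pck1 was still high through ZT9 and ZT12. At ZT18 it was 879, 1248, 2529.6 and 3071 CPM and at ZT21 it was 2884, 2832, 2619 and 2006. The highest mean was again at ZT3 (3384 ± 577 CPM, SD, n = 4), but the lowest was at ZT0 (1608 ± 849 CPM, SD, n = 4), 2.10-fold apart with ranges that overlapped. The other means were 3094 ± 1140.3 at ZT9, 2585 ± 403 at ZT21, 2559 ± 491 at ZT12, 2512 ± 316 at ZT6, 1932 ± 1038 at ZT18 and 1830.0 ± 624 CPM at ZT15. Each of the 7 neighbouring pairs lay within its pooled SD.

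**Figure D1:**
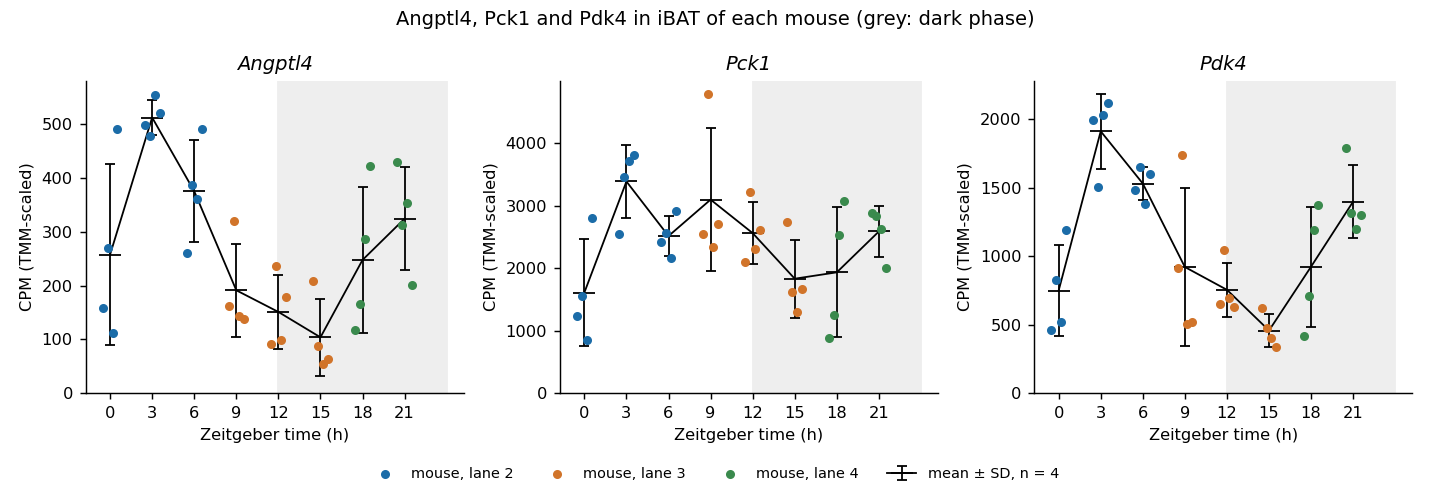
Level of Angptl4, Pck1 and Pdk4 (CPM after TMM scaling, vertical axes from 0) against Zeitgeber time in hours. Each point is a mouse coloured by sequencing lane, the line joins the means of 4 mice, bars are SD and grey marks the dark phase; Angptl4 and Pdk4 are highest at ZT3 and lowest at ZT15, while Pck1 stays high through ZT9 and ZT12 and mice of ZT0, ZT9 and ZT18 are far apart.

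A 24 h cosine fitted to log2 CPM put the peaks of Angptl4 and Pdk4 at ZT2.19 (SE 0.78 h) and ZT2.85 (SE 0.96 h), and that of Pck1 at ZT6.80 (SE 1.52 h). Amplitudes on the log2 scale were 0.89 ± 0.18, 0.66 ± 0.17 and 0.35 ± 0.14 (SE) in that order. The ratios between members changed with the time of day. Pck1 was 5.11 to 9.96 times Angptl4 in every mouse of ZT0, ZT3, ZT6, ZT18 and ZT21, and 13.1 to 26.2 times in every mouse of ZT9, ZT12 and ZT15. Pck1 over Pdk4 was 1.28 to 2.68 in the first set and 2.75 to 5.22 in the second. The ratio of Pdk4 to Angptl4, with means from 3.26 to 5.54 over the time points, overlapped between the sets. The time points with the high Pck1 ratios are exactly those of lane 3, so time of day and lane cannot be told apart in this step.

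Mice killed at the same time differed widely. The SD of log2 CPM within time points was 0.65 for Angptl4, 0.49 for Pck1 and 0.51 for Pdk4, beside a median of 0.18 over the 13449 genes with at least 1 CPM. At ZT0, Angptl4 ranged 4.37-fold and Pck1 3.33-fold, at ZT9 Pdk4 ranged 3.43-fold, and at ZT18 the ranges were 3.57-fold, 3.49-fold and 3.29-fold for Angptl4, Pck1 and Pdk4. By contrast, Angptl4 spanned only 1.16-fold at ZT3, and Pck1 and Pdk4 only 1.35-fold and 1.20-fold at ZT6. Time point accounted for 63.6%, 46.5% and 68.1% of the variation of Angptl4, Pck1 and Pdk4 in log2 CPM, beside a median of 42.7% over those 13449 genes.

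The 3 genes went up and down together between mice. Deviations from the time-point means correlated with r = 0.906 (Spearman rho = 0.892) for Angptl4 and Pck1, 0.813 (0.754) for Angptl4 and Pdk4, and 0.83 (0.758) for Pck1 and Pdk4 (n = 32). Without the 2 mice farthest from the median the values were 0.882, 0.792 and 0.767, and within lanes 2, 3 and 4 they were 0.897, 0.927 and 0.951, then 0.863, 0.747 and 0.887, then 0.791, 0.799 and 0.938. All 3 genes were above their time-point mean in 12 mice, all below in 13 and mixed in 7. The mouse with the most was the same for Angptl4 and Pck1 at 7 of 8 time points, for Angptl4 and Pdk4 at 6 and for Pck1 and Pdk4 at 7. The mouse with the least was the same at 5, 2 and 3 of 8. The points share libraries and scaling factors. Deviations of the TMM factor correlated with those of Angptl4, Pck1 and Pdk4 at r = 0.551, 0.418 and 0.128, those of summed muscle markers at 0.263, 0.300 and 0.283, and those of the mitochondrially encoded share at 0.289, 0.251 and -0.036. Scaled by library size without TMM, the 3 correlations were 0.918, 0.836 and 0.840. The part of the muscle markers and of the mitochondrial share was not tested. Over the 8 time-point means the order of the pairs was different, with r = 0.958 for Angptl4 and Pdk4, 0.665 for Pck1 and Pdk4 and 0.479 for Angptl4 and Pck1.

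**Figure D2:**
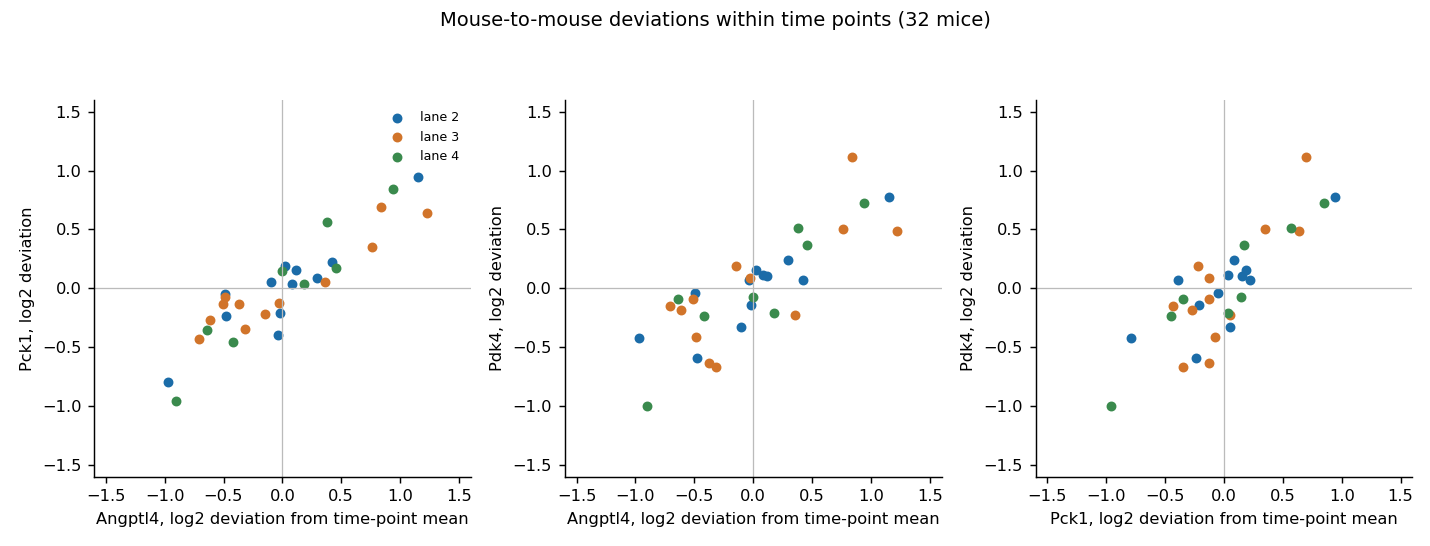
Deviation of each of 32 mice from the mean of its time point (log2 CPM) for each pair of the 3 genes, coloured by lane. Points rise from lower left to upper right in every panel and every lane, with r = 0.906, 0.813 and 0.83 from left to right.

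The next question was which other genes went with each member among mice of the same time point. Each gene was fitted with time point and the log2 CPM of the member, so the slope is the log2 change of the gene for a doubling of the member. By edgeR's quasi-likelihood test at an adjusted p under 0.05 over 15502 genes, 67 genes rose with Angptl4 (0.432% of those tested) and 141 fell (0.91%), 52 rose with Pck1 (0.335%) and 100 fell (0.645%), and 4 rose with Pdk4 (0.0258%) and 3 fell (0.0194%). At an unadjusted p under 0.05 there were 2654, 2173 and 1001 genes. The median slope over all genes was 0.01, 0.01 and 0.00 on the log2 scale. The split depended on scaling: by library size without TMM, 479 genes rose with Angptl4 and 176 fell, and 201 rose with Pck1 and 118 fell. Single libraries also moved the counts. Without replicate 1 of ZT15 there were 51 genes for Angptl4 and 80 for Pck1, without replicate 4 of ZT0 there were 95 and 47, without replicate 3 of ZT0 111 and 75, and without replicate 2 or 3 of ZT9 582 and 523 for Angptl4 and 247 and 303 for Pck1. The Angptl4 count was 136 and 365 without replicate 1 or 3 of ZT12 and 122 and 120.0 without replicate 1 or 4 of ZT18, the Pck1 count was 92, 94 and 91 without replicates 1, 3 or 4 of ZT18 and 99 without replicate 4 of ZT21, and the Pdk4 count was 14 without replicate 1 of ZT3 and 3 without replicate 1 of ZT18. Without the 4 libraries highest in muscle markers, an omission chosen after seeing the data, 11, 22 and 4 genes passed for Angptl4, Pck1 and Pdk4. Alternatives were run for 40 slopes that passed, those of list genes and of the genes with the highest or lowest r with that member. Some other slopes of named genes passed too and were not rerun. Of the 40, 1, 0 and 20 passed in lanes 2, 3 and 4 alone and 16 without the 4 libraries highest in muscle markers. Without the 2 libraries farthest from the median of the member, 12 of the 40 passed: Pnrc1, Btg1, Txnip and Ppp1r3c on Angptl4, and Pnrc1, Btg1, Cebpa, Zfp703, Ppp1r3c, Hyls1, Lfng and Angptl8 on Pck1. The other 28, with adjusted p from 0.052 to 0.48, include every slope on Pdk4. With the replicate number as a block 36 passed, with muscle markers as a covariate 38, and by DESeq2 all 40. P-values here are for a slope other than 0, set against the remaining spread between mice of the same time point.

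Pnrc1, a coactivator of nuclear receptors, was most like each member, with r = 0.888, 0.887 and 0.820 over the 32 deviations from Angptl4, Pck1 and Pdk4. At ZT0 it was 24.0, 43.8, 23.2 and 47.0 CPM and at ZT18 22.4, 32.7, 44.7 and 55.3, high in the mice that were high in the members. It was higher in the mouse with the most than in the mouse with the least of each member at 8 of 8 time points. Its slope was 0.55 ± 0.06 on Angptl4, 0.73 ± 0.08 on Pck1 and 0.64 ± 0.09 on Pdk4 (SE, edgeR adjusted p = 2.4e-06, 2.4e-06 and 0.00043). Those 3 calls held when any of the 32 libraries was left out and without the 4 libraries highest in muscle markers (adjusted p = 0.0014, 0.00047 and 0.025). The call on Pdk4 was lost without the 2 libraries farthest from the median (adjusted p = 0.081). In lanes 2, 3 and 4 alone the slope on Pck1 was 0.70, 0.85 and 0.68. Over 45 alternatives the adjusted p ran up to 0.21 on Angptl4, 0.19 on Pck1 and 0.78 on Pdk4, the highest values coming from single lanes.

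Ppp1r3c, a scaffold that directs protein phosphatase to glycogen and promotes glycogen synthesis, was the mirror image. It was 225, 158, 285 and 139 CPM at ZT0 and 210.3, 179.5, 112 and 124 at ZT18, low in the mice that were high in the members, and lower in the mouse with the most of each member at 8 of 8 time points. Slopes were -0.47 ± 0.07 on Angptl4, -0.67 ± 0.08 on Pck1 and -0.57 ± 0.10 on Pdk4 (SE, edgeR adjusted p = 0.00058, 2.2e-05 and 0.0088). Without replicate 2 of ZT9 the last was 0.062, and without the 2 farthest libraries 0.29. Without the 4 libraries highest in muscle markers, p was 0.071, 0.0018 and 0.11.

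Among the other genes most like the members, Btg1, an antiproliferative factor, had slopes of 0.40 ± 0.06, 0.55 ± 0.07 and 0.44 ± 0.09 on Angptl4, Pck1 and Pdk4 (SE, edgeR adjusted p = 0.00038, 9.5e-05 and 0.033), of which the last was lost (adjusted p = 0.050 to 0.32) on leaving out replicate 2 or 4 of ZT0, 4 of ZT3, 2 or 3 of ZT9, 2 of ZT12, 1 of ZT15 or any mouse of ZT18. Tmem140 followed Angptl4 (0.22, adjusted p = 0.0028) and Pdk4 (0.27, adjusted p = 0.018), and Myc, a growth-promoting transcription factor, followed Angptl4 (0.66, adjusted p = 0.0016). Lmbr1l (0.29, adjusted p = 0.0032) and Zfp703 (0.50, adjusted p = 0.00085) followed Pck1, and Arrdc3, an arrestin-domain protein, followed Pdk4 (0.55, adjusted p = 0.0076). For Gpatch1 the slope on Pdk4 was 0.18 (adjusted p = 0.11), while it passed on Angptl4 (0.15, adjusted p = 0.0080) and Pck1 (0.20, adjusted p = 0.014). Beside Ppp1r3c, the lowest were Smg5, of nonsense-mediated decay, and Nfe2l2, the antioxidant regulator NRF2, on Angptl4 (-0.28, adjusted p = 0.00064, and -0.24, adjusted p = 0.00091), Hyls1 and Lfng, a modifier of Notch receptors, on Pck1 (-1.15, adjusted p = 2.7e-05, and -0.96, adjusted p = 0.00027), and Tchp and Lfng on Pdk4 (-0.39, adjusted p = 0.016, and -0.87, adjusted p = 0.0076). Most of these genes passed on more than 1 member. Arrdc3, Btg1, Lfng, Pnrc1, Ppp1r3c and Tmem140 passed on all 3. On Angptl4, Lmbr1l, Zfp703, Hyls1 and Tchp passed too (adjusted p = 0.0055, 0.0086, 0.00064 and 0.023). On Pck1, Myc, Smg5 and Nfe2l2 did (adjusted p = 0.0017, 0.00085 and 0.011). Slopes in the last 2 sentences were not rerun under the alternatives. All these p-values are edgeR values adjusted over all genes. Without replicate 1 of ZT18 the calls of Arrdc3, Lfng and Tchp on Pdk4 were each lost, at adjusted p = 0.11, and without replicate 2 of ZT9 those of Tchp and Tmem140 (adjusted p = 0.14 and 0.16). Tchp was also lost without replicate 3 of ZT9 or 4 of ZT18 (adjusted p = 0.053 and 0.075) and Tmem140 without replicate 4 of ZT0 (adjusted p = 0.078). On Angptl4, Myc, Nfe2l2, Smg5 and Tmem140 were lost without the 2 farthest libraries (adjusted p = 0.12, 0.12, 0.078 and 0.12), as was Lmbr1l on Pck1 (adjusted p = 0.074). Myc, Smg5 and Tmem140 were lost without the 4 libraries highest in muscle markers too (adjusted p = 0.094, 0.071 and 0.11).

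The gene lists used from here on were chosen with earlier results of these data known. Their counts beside the background are therefore described and are no independent test of the lists. Genes that are held down by insulin through FOXO factors leaned to positive slopes. Of the 17 tested, 13 had a positive slope on Angptl4, 14 on Pck1 and 13 on Pdk4, with medians of 0.15, 0.22 and 0.07, whereas 53.3%, 52.8% and 50.6% of all genes tested had a positive slope. Past the threshold, 3 rose with Angptl4 (background 0.432%) and 2 with Pck1 (background 0.335%). None rose with Pdk4 by edgeR (background 0.0258%), where 2 passed by DESeq2, and none fell in these 3 fits by edgeR. At an unadjusted edgeR p under 0.05 there were 11, 9 and 5 of the 17 on Angptl4, Pck1 and Pdk4, beside 2654, 2173 and 1001 of 15502 genes. On Angptl4 and Pck1 the counts were 7 and 4 by library size, 5 and 4 by DESeq2, 1 and 0 without the 2 libraries farthest from the median, and 1 to 4 and 1 to 3 with 1 library left out, lowest without replicate 3 of ZT0. In lane 3 alone, 8 of the 17 slopes on Pdk4 were positive and 9 negative. Irs2, the insulin receptor substrate induced in fasting, had the steepest slope in this list, 1.62 ± 0.29 on Pck1 (SE, edgeR adjusted p = 0.0048), beside 0.96 ± 0.25 on Angptl4 (adjusted p = 0.055) and 1.41 ± 0.30 on Pdk4 (adjusted p = 0.10). It was 8.28, 13.3, 9.36 and 30.5 CPM at ZT0, 39.1, 39.0, 303 and 200.5 at ZT3 and 8.65, 16.0, 108 and 108 at ZT18. The mice with high Pck1 at ZT0 and ZT18 were high in Irs2, and at ZT3 a large spread of Irs2 stood beside a small spread of Pck1. Txnip, an inhibitor of thioredoxin and of glucose uptake, rose with Angptl4 (0.56 ± 0.08, adjusted p = 0.00071) and Pck1 (0.60 ± 0.14, adjusted p = 0.027), and had 0.51 ± 0.13 on Pdk4 (adjusted p = 0.25). Its call on Pck1 was lost without replicate 3 or 4 of ZT0 (adjusted p = 0.089 and 0.13), without the 4 libraries highest in muscle markers (adjusted p = 0.24), without the 2 farthest (adjusted p = 0.22) and with the replicate block (adjusted p = 0.077). The call of Irs2 on Pck1 was lost without the 2 farthest (adjusted p = 0.13). Cited2 (0.45, adjusted p = 0.015) and Ccng2 (0.23, adjusted p = 0.019) rose with Angptl4, and both calls were lost without replicate 1 of ZT15 (adjusted p = 0.12 and 0.18) or 3 of ZT0 (adjusted p = 0.053 and 0.067). Ccng2 was also lost without replicate 1 or 4 of ZT18 (adjusted p = 0.057 and 0.058). Igfbp1 did not pass the filter, with 0 counts in all libraries.

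All 18 lipogenic genes, which feeding and insulin raise, had a negative slope on each of the 3 members, with medians of -0.46, -0.54 and -0.19 on Angptl4, Pck1 and Pdk4. Past the threshold, 5 of 18 fell with Angptl4 (background 0.91%) and 3 with Pck1 (background 0.645%). These counts were 9 and 5 both by library size and by DESeq2, and 0 and 1 without the 2 libraries farthest from the median. With 1 library left out they ran from 1 (without replicate 1 of ZT15) to 12 on Angptl4 and from 1 (without replicate 3 of ZT0) to 6 on Pck1, both highest without replicate 3 of ZT9. None passed on Pdk4 by edgeR or by DESeq2. At an unadjusted edgeR p under 0.05 there were 18, 15 and 5 of the 18 on Angptl4, Pck1 and Pdk4, beside 2654, 2173 and 1001 of 15502 genes. In lane 3 alone the direction on Pdk4 turned, with 12 of 18 slopes positive, and 1 of 18 was positive on Angptl4. Hk2, which encodes a hexokinase, had the lowest adjusted p of the list on Angptl4, with slopes of -0.58 ± 0.09 on Angptl4 and -0.68 ± 0.14 on Pck1 (SE, edgeR adjusted p = 0.0011 and 0.014), with -0.46 ± 0.16 on Pdk4 (adjusted p = 0.53). Hk2 was 652, 458, 776 and 309 CPM at ZT0, where replicate 4 with the most of all 3 members had the least, and 235, 702, 874 and 851 at ZT15, where replicate 1 did. Angptl8, a partner of other ANGPTL proteins in LPL inhibition that is induced by feeding, had slopes of -0.77 ± 0.15, -0.98 ± 0.20 and -0.58 ± 0.25 on Angptl4, Pck1 and Pdk4 (adjusted p = 0.0086, 0.011 and 0.70). It was 40.3, 53.8, 129 and 40.8 CPM at ZT0, 19.2, 78.6, 156 and 84.2 at ZT15 and 91.0, 86.2, 38.8 and 30.1 at ZT18. It was highest in the mouse with the least Angptl4 at 5 of 8 time points, these 3 included, and lowest in that mouse at ZT3 (19.2 CPM beside 23.8 to 34.4 in the others). Srebf1 and Mlxipl, the lipogenic factors SREBP1 and ChREBP, fell with Angptl4 (-0.36, adjusted p = 0.013, and -0.44, adjusted p = 0.016), as did Pnpla3 (-0.45, adjusted p = 0.033), and Mlxipl fell with Pck1 (-0.53, adjusted p = 0.044). The enzymes of fatty acid synthesis themselves did not pass: slopes on Angptl4 were -0.65 ± 0.21 for Acly (adjusted p = 0.11), -0.44 ± 0.18 for Acaca (adjusted p = 0.22) and -0.54 ± 0.20 for Fasn (adjusted p = 0.19).

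These calls rested in part on replicate 1 of ZT15, the library with the most muscle and least brown adipocyte transcripts, in which Srebf1 was 357 CPM beside 818 to 985 in the other 3 mice. Without it 1 of 18 lipogenic genes passed on Angptl4 and 2 on Pck1, while all 18 slopes stayed negative on both, and 14 of 18 on Pdk4. Hk2 was the gene still called on Angptl4 (adjusted p = 0.0091), and Hk2 and Angptl8 were those on Pck1 (adjusted p = 0.023 and 0.022). Among the slopes on Angptl4 that were rerun, 9 genes were no longer called without this mouse, with edgeR adjusted p from 0.066 to 0.21. Their slopes were between -0.63 for Angptl8 and 0.41 for Cited2 without it, beside -0.77 and 0.45 with it, and those of Lpin1 (-0.26 beside -0.27), Aqp7 (0.16 beside 0.18), Mlxipl (-0.37 beside -0.44) and Srebf1 (-0.27 beside -0.36) kept their sign. Hk2 on Pck1 was also lost without replicate 4 of ZT0 (adjusted p = 0.076) and Angptl8 on Pck1 without replicate 3 of ZT0 (adjusted p = 0.061). The call of Mlxipl on Angptl4 was lost without replicate 4 of ZT0 (adjusted p = 0.059) and that on Pck1 with any of 13 mice left out (p up to 0.14), and Pnpla3 on Angptl4 with any of 8 (p up to 0.21). Without the 4 libraries highest in muscle markers 1 and 0 lipogenic genes passed on Angptl4 and Pck1 by edgeR, while all 18 slopes were negative on both and 14 of 18 on Pdk4. The slopes on Angptl4 were then -0.40 for Mlxipl, -0.40 for Pnpla3, -0.25 for Srebf1 and -0.48 for Angptl8. These libraries, replicate 1 of ZT15, 2 of ZT3, 2 of ZT12 and 3 of ZT0, deviated from their time points in Angptl4 itself by 1.23, -0.10, 0.76 and -0.97 on the log2 scale, 3 of them by more than the SD of 0.65 between mice of a time point. The 12 skeletal muscle genes all had positive slopes on each member, with medians of 1.02, 1.83 and 1.67, none past the threshold by edgeR. With the summed muscle markers as a covariate, 4 lipogenic genes passed on Angptl4, 2 on Pck1 and 0 on Pdk4, with 18, 18 and 17 of 18 slopes negative. In that fit Hk2 had slopes of -0.57 on Angptl4 and -0.66 on Pck1 (adjusted p = 0.0024 and 0.028).

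**Figure D3:**
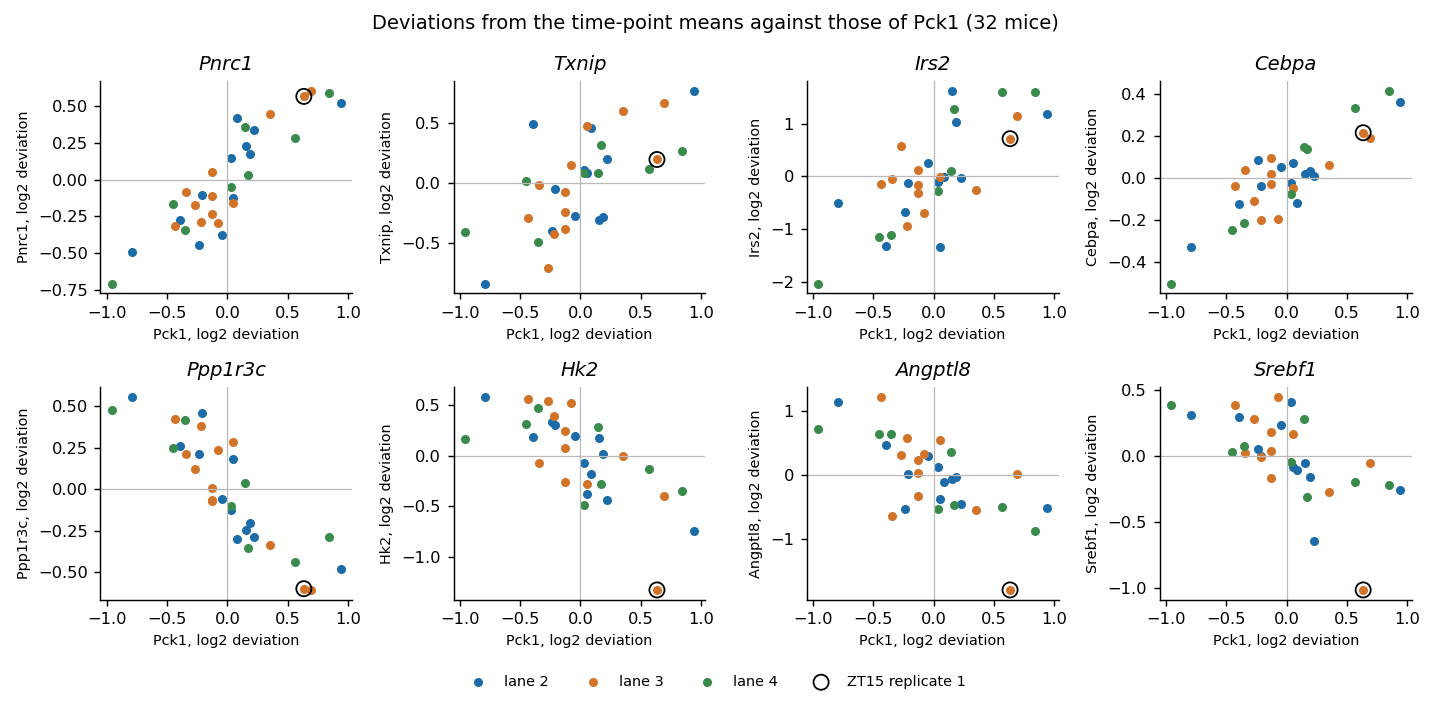
Deviations from the time-point means (log2 CPM) of 8 genes against those of Pck1 in 32 mice, coloured by lane, with replicate 1 of ZT15 circled. Pnrc1, Txnip, Irs2 and Cebpa rise with Pck1 and Ppp1r3c, Hk2, Angptl8 and Srebf1 fall, though Srebf1 did not pass the threshold on Pck1. The circled mouse is lowest for Hk2, Angptl8 and Srebf1.

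Genes of the pathways in which each member acts were examined next, by their RNA only. The authors state that ANGPTL proteins change LPL as a protein and not its mRNA. The slopes do not measure the activity of LPL or of pyruvate dehydrogenase. Of the 8 genes of LPL handling none passed on any member by edgeR or DESeq2 (1, 0 and 0 at an unadjusted edgeR p under 0.05 on Angptl4, Pck1 and Pdk4). Lpl itself had a slope of 0.03 ± 0.05 on Angptl4 (SE, adjusted p = 0.80), and Gpihbp1, which holds LPL on the capillary wall, 0.07 ± 0.05 (adjusted p = 0.48). Of 13 genes of the pyruvate dehydrogenase complex and its regulation, Mpc1, a subunit of the mitochondrial pyruvate carrier, fell with Angptl4 (-0.38 ± 0.08, adjusted p = 0.0099; background 0.91%) and was the 1 gene to pass on any member by edgeR, while 4, 1 and 0 passed on Angptl4, Pck1 and Pdk4 by DESeq2. On Angptl4 the count by edgeR was 3 by library size, 5 in lane 4 alone, and 0 (without replicate 1 of ZT15) to 7 (without replicate 3 of ZT9) with 1 library left out. The slopes of 11 of the 13 were negative on Angptl4, 11 on Pck1 and 10 on Pdk4. At an unadjusted edgeR p under 0.05 there were 10, 7 and 0 of the 13, beside 2654, 2173 and 1001 of 15502 genes. In lane 3 alone the direction on Pdk4 turned, with 12 of 13 slopes positive. Mpc1 can share reads with a near-identical pseudogene, which makes its count uncertain, and its call was lost without replicate 1 of ZT15 (adjusted p = 0.083). The catalytic subunit gene Pdha1 had -0.23 ± 0.06 on Angptl4 (adjusted p = 0.073) and -0.09 ± 0.10 on Pdk4 (adjusted p = 0.95). Of 16 genes of glyceroneogenesis and glycerol 3-phosphate, 9, 6 and 2 had an unadjusted p under 0.05 on Angptl4, Pck1 and Pdk4. Aqp7, the glycerol channel, rose with Angptl4 (0.18 ± 0.04, adjusted p = 0.0086) and Pck1 (0.25 ± 0.04, adjusted p = 0.0041) and was higher in the mouse with the most of each member at 8 of 8 time points. Lpin1, a phosphatidate phosphatase, fell with Angptl4 (-0.27 ± 0.06, adjusted p = 0.024). Gk, the glycerol kinase, had 0.36 ± 0.25 on Pck1 (adjusted p = 0.51). Without replicate 1 of ZT15 neither Aqp7 (adjusted p = 0.075) nor Lpin1 (adjusted p = 0.12) passed on Angptl4. Nor did Aqp7 without replicate 4 of ZT0 (adjusted p = 0.059), or Lpin1 without replicate 3 of ZT0 or 4 of ZT18 (adjusted p = 0.072 and 0.066) or with the mitochondrial share as a covariate (adjusted p = 0.059). Aqp7 on Pck1 was lost without the 4 libraries highest in muscle markers (adjusted p = 0.11) and without the 2 farthest from the median (adjusted p = 0.074). With 1 library left out, 0 (without replicate 1 of ZT15) to 5 (without replicate 3 of ZT9) of these 16 genes passed on Angptl4.

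Of 23 known regulators of the members, 1 passed on Angptl4, 1 on Pck1 and none on Pdk4 by edgeR, beside 0.432%, 0.335% and 0.0258% of all genes higher. At an unadjusted p under 0.05 there were 7, 7 and 4 of the 23, beside 2654, 2173 and 1001 of 15502 genes, and by DESeq2 2, 3 and 1 passed. Cebpa, an adipocyte transcription factor, rose with Angptl4 (0.24 ± 0.05, edgeR adjusted p = 0.0080) and Pck1 (0.39 ± 0.05, adjusted p = 2.7e-05), with 0.29 ± 0.06 on Pdk4 (adjusted p = 0.11). It was 330, 286, 248 and 400 CPM at ZT0 and 203, 242, 362 and 383 at ZT18, and it was higher in the mouse with the most Pck1 at 8 of 8 time points. Both calls held when any library was left out, and without the 4 libraries highest in muscle markers the one on Pck1 did (adjusted p = 0.0016; on Angptl4 adjusted p = 0.098). Without the 2 farthest libraries the call on Angptl4 was lost (adjusted p = 0.17). Ppara, the fasting-responsive PPAR, had slopes of 0.40 ± 0.13, 0.61 ± 0.16 and 0.33 ± 0.18 (adjusted p = 0.11, 0.066 and 0.84), and Pparg -0.03 ± 0.08, -0.11 ± 0.10 and -0.13 ± 0.09 (adjusted p = 0.87, 0.63 and 0.91). The glucocorticoid receptor Nr3c1 had 0.01 ± 0.04 on Angptl4 (adjusted p = 0.88), and Klf15, which is itself induced by glucocorticoids, 0.29 ± 0.08 (adjusted p = 0.081).

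Other targets of the same regulators were examined too. Of 20 PPAR targets of fatty acid oxidation none passed on any member by edgeR or DESeq2. On Angptl4 by edgeR, 1 did when scaled by library size and 2 without replicate 2 of ZT9. At an unadjusted p under 0.05 there were 12, 5 and 3 of the 20, beside 2654, 2173 and 1001 of 15502 genes, with medians of -0.08, -0.09 and 0.05. Cpt1b, the muscle-type carnitine palmitoyltransferase that brown fat uses, had 0.17 ± 0.06 on Angptl4 (adjusted p = 0.15), while Hadha and Acadm, of beta-oxidation, had -0.16 ± 0.05 and -0.11 ± 0.05 (adjusted p = 0.14 and 0.27). Nor did any of the 13 glucocorticoid targets pass by either tool (0, 2 and 1 at an unadjusted p under 0.05). Fkbp5 had 0.14 ± 0.15 on Angptl4 and -0.20 ± 0.20 on Pdk4, and Tsc22d3 -0.03 ± 0.08 and -0.18 ± 0.09. Of 6 lipolysis genes none passed by either tool (1, 0 and 1 at an unadjusted p under 0.05), and Pnpla2, the adipose triglyceride lipase, had -0.03 ± 0.02 on Angptl4 (adjusted p = 0.47).

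**Figure D4:**
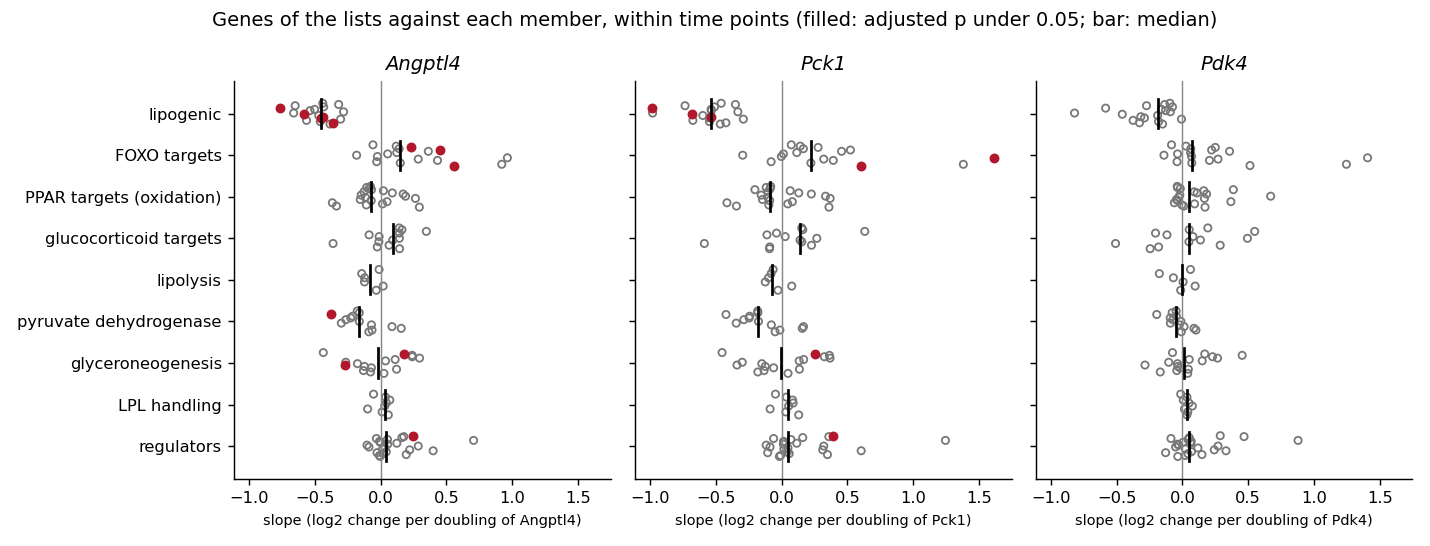
Slopes (log2 change for a doubling of the member, within time points) of the genes of 9 lists on Angptl4, Pck1 and Pdk4. Each point is a gene, filled where the edgeR adjusted p was under 0.05, and bars are medians; all 18 lipogenic genes lie left of 0 in each panel, and most FOXO targets lie right of it.

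To ask what went with Pdk4 beyond Angptl4, both were put in 1 fit. In it 83 genes rose with Pdk4 (0.535%) and 75 fell (0.484%), but none passed without replicate 2 or 3 of ZT9, replicate 1 of ZT15 or replicate 3 of ZT21, and 1236 did without replicate 3 of ZT12. Leaving out 1 library moved the count by over 1.5 times for 20 of the 32. By library size the split was 9 higher and 97 lower. Genes from the lists that rose included Pdhx, Pdp2, Mpc1, Plin2, Agpat2 and Pltp, and Cited2 and Bnip3 fell, with edgeR adjusted p from 0.037 to 0.048. Of the lipogenic genes, 17 of 18 had positive slopes here, with a median of 0.68 and none past the threshold by edgeR but 9 by DESeq2, and without replicate 1 of ZT15 16 of 18 were positive. On Angptl4 in the same fit all 18 lipogenic genes had negative slopes, with a median of -0.94, and 17 of 18 passed the threshold. Of the pyruvate dehydrogenase genes 10 of 13 were lower, of the PPAR targets 9 of 20 and of the glyceroneogenesis genes 6 of 16, while 5 of 17 FOXO targets were higher and 1 lower. Over all genes, 960 were higher (6.19%) and 1216 lower (7.84%), and by library size 2838 were higher and 417 lower. These counts too fell without replicate 1 of ZT15, to 410 genes in all, with 10 lipogenic genes, 7 of pyruvate dehydrogenase and 3 PPAR targets. Without replicate 4 of ZT0, 2 or 3 of ZT9 or 1 of ZT12 they were 1341, 1341, 1057 and 1241 genes. Without the 4 libraries highest in muscle markers 107 genes passed, with 1 lipogenic gene, 1 of pyruvate dehydrogenase and 0 PPAR targets among them. Deviations of Angptl4 and Pdk4 correlated at r = 0.813, as given above, so the 2 slopes of a gene in this fit depend on each other. With Pdk4 fitted alone, all 18 lipogenic slopes on it were negative, with a median of -0.19. Markers of cell types were counted in this fit too. All 6 macrophage markers had positive slopes on Angptl4, with a median of 0.70, and negative slopes on Pdk4, with a median of -0.94. Of these, Lyz2 (0.87 ± 0.21, adjusted p = 0.0094) and C1qb (0.84 ± 0.22, adjusted p = 0.014) passed on Angptl4 by edgeR (background 6.19%). The 6 summed to between 44 and 278 CPM per library with none at 0. Of the 10 brown adipocyte markers, 9 had negative slopes on Angptl4. Of them 1 passed by edgeR (background 7.84%), Elovl3, a fatty acid elongase (-2.99 ± 0.61, adjusted p = 0.0044). No marker of skeletal muscle, red blood cells, lymphocytes, endothelium or white adipocytes passed on Angptl4 in this fit. The part of these cells in the slopes of the lists was not tested.

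The lists were also compared over the day. By edgeR, 6171 genes (39.8%) differed between time points, and by JTK, the rank test for oscillation, 5395 (34.8%) oscillated at P under 0.05. Of the lipogenic genes 8 of 18 differed and 12 of 18 oscillated, of the FOXO targets 8 and 5 of 17, of the PPAR targets 7 and 4 of 20, of the glucocorticoid targets 10 and 8 of 13, and of the regulators 14 and 11 of 23. The counts were 6 and 5 of 16 for glyceroneogenesis, 2 and 4 of 13 for pyruvate dehydrogenase, 5 and 4 of 8 for LPL handling and 3 and 3 of 6 for lipolysis. Over the 8 means of log2 CPM, the genes most like Angptl4 were Akap1 (r = 0.976), Map4k4 (0.973) and Samd10 (0.970), those most like Pck1 were Dpy19l4 (0.988), Ppp2r2d (0.988) and Pcdhgb6 (0.987), and those most like Pdk4 were Ireb2 (0.977), Ulk3 (0.975) and Dgke (0.970). Between mice of the same time point, Ppp2r2d passed on Angptl4 (slope 0.11 ± 0.03, edgeR adjusted p = 0.030) and had 0.13 ± 0.04 on Pck1 (adjusted p = 0.085). None of the other 8 passed on any member by edgeR, and the slope of Akap1 on Angptl4 was -0.03 ± 0.07 (adjusted p = 0.85).

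Paralogs differed from the members in level and course. Per kilobase, Pdk4 at 308 CPM per kb lay above Pdk2 (99.8), Pdk1 (20.5) and Pdk3 (0.582), and Pck1 at 711 above the mitochondrial form Pck2 (2.63). Angptl4 at 76.4 lay above Angptl8 (51.5), Angptl2 (24.4), Angptl1 (3.65) and Angptl6 (1.34), and Angptl7 did not pass the filter. Between time points, Angptl8 differed by edgeR (adjusted p = 0.0019), with its highest mean where Angptl4 was lowest, 84.4 CPM at ZT15, and its lowest, 19.5 CPM, at ZT6. Angptl2, a pro-inflammatory family member (adjusted p = 1.0e-07), ran from 94.2 CPM at ZT0 to 216 at ZT12. Pdk2 (adjusted p = 0.0074) and Angptl1 (adjusted p = 0.0027) differed too, whereas Pdk1 (adjusted p = 0.68), Pdk3 (adjusted p = 0.13), Pck2 (adjusted p = 0.17) and Angptl6 (adjusted p = 0.11) did not pass. Among mice of the same time point, Pdk2 had a slope of -0.02 ± 0.04 on Pdk4 (adjusted p = 0.97) and Pck2 0.14 ± 0.10 on Pck1 (adjusted p = 0.55).

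**Figure D5:**
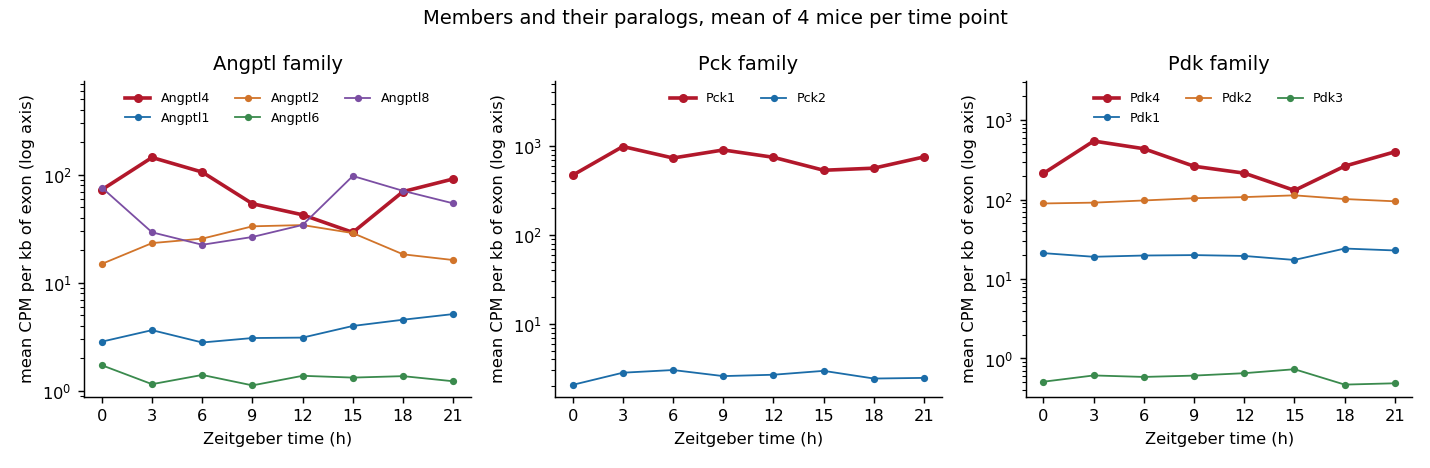
Mean CPM per kilobase of exon (log axis, 4 mice per time point) against Zeitgeber time for Angptl4, Pck1 and Pdk4 (thick red lines) and the paralogs named above. Pck1 and Pdk4 lie above these paralogs at every time point, while the mean of Angptl8 exceeds that of Angptl4 at ZT0, ZT15 and ZT18. At ZT18 these means are close. The ZT0 mean of Angptl8 rests on replicate 3 (128.8 CPM beside 40.31 to 53.8 in the others).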

How the data were processed

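The labels and methods gave stranded paired-end RNA-seq of iBAT from 32 mice. Per the methods and submitters' processing notes, the authors mapped reads with GSNAP to mm10 and counted them per Ensembl gene with HTSeq (0.6.1). The deposited values are raw counts without normalization. Whether counting used strand is not given in the sources used here. Coordinates are GENCODE, GRCm38.

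Genes were filtered with filterByExpr, scaled with TMM and tested with edgeR 4.0.16 (R 4.3.3) quasi-likelihood fits with Benjamini-Hochberg adjustment, using time point, or time point plus the log2 CPM (prior count 2) of a member. JTK was an own implementation with templates of 21 and 24 h. DESeq2 1.42.0 was an alternative. Scripts were tested on simulated data. Library pairs of the same time point were checked for duplicates, and none was found.

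The members and lists were chosen with earlier results of these data known. Named genes are the members, list genes and, per member, the 5 genes with the highest and 3 with the lowest r within time points and the 3 with the highest r over time-point means, at a mean of at least 1 CPM. Some list genes are not reported here by name, though counts over the lists include them.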

Additional observations from a re-analysis of the deposited data

Results flagged for a closer look

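Of 168 sets of 4 mice (21 genes at 8 time points), 8 held a mouse far from the other 3, and chance flags about 1 set in 20. Angptl4 at ZT9 was 320.5 CPM in replicate 2 beside 138.6 to 162.2 CPM in the others. In the same mouse Pck1 was 4789 CPM beside 2330.3 to 2709 CPM. Pdk4 at ZT12 was 1046 CPM in replicate 2 beside 629.7 to 694.6 CPM, and Pnrc1 in that mouse was 41.57 CPM beside 26.9 to 28.1 CPM. At ZT3 Aqp7 was lowest in replicate 1, at 133.5 CPM beside 160.1 to 161.1 CPM. Angptl8 at ZT0 was 128.8 CPM in replicate 3, which had the least Angptl4 and Pck1 of that time point, beside 40.31 to 53.8 CPM. Pnpla3 was 1129 CPM in replicate 1 of ZT12 beside 776.3 to 809.5 CPM, and 345.8 CPM in replicate 1 of ZT15 beside 1133 to 1191 CPM.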

How the results depend on the processing

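Between mice, the correlation of Angptl4 and Pck1 was 0.8615 on CPM and 0.9512 in lane 4 alone, that of Angptl4 and Pdk4 0.747 in lane 3 and 0.8872 in lane 4, and that of Pck1 and Pdk4 0.9381 in lane 4. With 1 library left out they ran from 0.8847 to 0.92, 0.7824 to 0.8387 and 0.7831 to 0.8506. Highest-minus-lowest differences on the log2 scale ran from 2.28 to 2.924 for Angptl4, 0.9325 to 1.513 for Pck1 and 1.95 to 2.251 for Pdk4. Counts of genes related to the members moved most. For Angptl4 (208) they were 655 by library size, 62 at an adjusted p under 0.01, 471 by DESeq2, 16, 0 and 485 in lanes 2, 3 and 4, 120 with the mitochondrial share as covariate, 4 without the 2 libraries farthest from the median, 11 without the 4 libraries highest in muscle markers (chosen after seeing the data) and 51 (without replicate 1 of ZT15) to 582 (without replicate 2 of ZT9) with 1 library left out. For Pck1 (152) they were 319 by library size, 28 at 0.01, 301 by DESeq2, 3, 0 and 43 by lane, 96 with muscle markers as covariate, 21 without the 2 farthest, 22 without the 4, and 47 (without replicate 4 of ZT0) to 303 (without replicate 3 of ZT9). For Pdk4 (7) they were 4 at 0.01, 33 by DESeq2, 0, 0 and 15 by lane, 17 with the mitochondrial share, 0 without the 2 farthest, 4 without the 4, and 3 (without replicate 1 of ZT18) to 14 (without replicate 1 of ZT3). For Pdk4 beside Angptl4 (158) they were 43 without the filter, 0 at 0.01, 806 by DESeq2, 1 without the 4 libraries and 0 to 1236 with 1 left out, 3305 genes having an unadjusted p under 0.05. For Angptl4 beside Pdk4 (2176), added after seeing the data, they were 107 without the 4 libraries and 410 (without replicate 1 of ZT15) to 3259 (without replicate 3 of ZT12) with 1 left out. A lane alone holds fewer mice. Genes that differed between time points (6171) numbered 3347 at 0.01, 1972, 286 and 649 by lane and 5556 to 6682 with 1 library left out, and oscillating genes 5117 to 5783. Replicate numbers did not pair the mice (52 of 112 same-numbered pairs had r over 0.1, from -0.893 to 0.897). With the replicate number as a block, the counts were 332 for Angptl4, 121 for Pck1, 7 for Pdk4, 97 beside Angptl4 and 5955 between time points, and JTK took no block. The other 56 such values moved by less than 1.5 times or by less than the spread. Apart from leaving out single libraries, the rerun slopes of named genes that had passed kept their call in 377 cases and lost it in 206. Gpatch1 on Pdk4, which had not passed, did so in 1 of its alternatives (adjusted p = 0.030 by edgeR with the mitochondrial share) and not in the other 12. None of these slopes changed sign, and apart from these causes by construction the cause was not tested.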
